A study of Mus musculus with 4 samples.

Results

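Rad21 peaks were followed across the mouse major histocompatibility complex (MHC), here the stretch of chromosome 17 from 33.8 to 37.5 Mb in the mm9 build. Every peak lying fully inside this window was taken from 4 peak lists, 1 per library, and peaks that touched or overlapped were merged over the lists into regions. The window held 158 of the 34743 Rad21 regions of all placed chromosomes, and no peak crossed an edge of the window or of its segments. The libraries were 2 of 53BP1 knockout cells and 2 of wild type (WT) cells, all v-Abl transformed pro-B cell lines, that is, early B cells kept in growth by a viral oncogene. All were deficient in RAG1, without which V(D)J recombination cannot start, and carried the Emu-Bcl2 transgene, which keeps arrested cells alive. All were treated for 4 days with 3 uM STI-571, an inhibitor of the v-Abl kinase that arrests such cells. The labels do not say how many clones or cultures the lines of a genotype represent, so spread between libraries may be technical. The titles and the extraction protocol name Rad21 as the target, while the treatment field of each sample names a 53BP1 antibody. The lists hold no measure of 53BP1, so genotype rests on the labels.

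Rad21 belongs to cohesin, whose ring extrudes chromatin loops and halts mainly at sites bound by CTCF. 53BP1 protects broken DNA ends from resection and favours their joining. The MHC codes for the proteins that show peptides to T cells: H2-K and H2-D are the classical class I molecules read by CD8 T cells, and the class II molecules H2-A and H2-E are read by CD4 T cells. Cells of the B lineage are among the cell types that express class II. In human B cells, cohesin and CTCF are known to bind insulators between class II genes. Class III lies between the class II genes and H2-D, and carries complement genes, heat-shock genes and the genes of tumour necrosis factor and lymphotoxin, while the H2-Q, H2-T and H2-M genes are mostly non-classical class I genes.

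No mm9 annotation was used here, so regions carry coordinates and no gene is assigned to any of them. Gene order alone was read from the RefSeq table of GRCm38.p6. There the stretch from H2-K1 to H2-M2 lists 169 protein-coding genes, 35 of them H2 genes. From H2-Oa to H2-Ea it lists 14 protein-coding genes, among them H2-Ab1 and H2-Aa, which code for the chains of H2-A, and Tap1 and Psmb8, which code for a peptide transporter subunit and an immunoproteasome subunit. The class III stretch from Notch4 to Ddx39b lists 57. From H2-D1 to H2-Q10 the table lists 7 protein-coding genes, from H2-T24 to H2-T3 10, and from H2-M10.2 to H2-M2 42, of which 16 are olfactory receptor genes. The window was described in 4 segments, with approximate borders at 34.6, 35.35 and 35.7 Mb set from background knowledge: H2-K and class II, class III, H2-D and H2-Q, and H2-T and H2-M.

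Rad21 peaks were dense over the MHC in both genotypes. The knockout lists held 33.2 and 31.9 peaks per Mb in the window, against 27.8 and 30.8 in the WT lists. Over all placed chromosomes the same lists held 9.77 and 8.85 peaks per Mb for the knockout and 8.53 and 8.95 for WT, and over the rest of chromosome 17 they held 12.1 and 10.7 for the knockout and 10.1 and 10.8 for WT. Every list was thus more than 2 times as dense in the MHC as on the rest of its chromosome. Merged regions numbered 42.7 per Mb in the MHC, 16.2 per Mb on the rest of chromosome 17 and 13.5 per Mb over all placed chromosomes. When the chromosomes were cut into 686 tiles as long as the window, the median tile held 45 regions, and 4 tiles held at least as many as the 158 of the MHC. One of these 4 lay on chromosome 17 and overlapped the window. These densities are a description, and no test of them was made.

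Density differed along the complex. The H2-K and class II segment held 49 regions in 0.8 Mb, which is 61.2 per Mb. Class III held 36 regions in 0.75 Mb (48 per Mb), and H2-D and H2-Q held 17 in 0.35 Mb (48.6 per Mb). The H2-T and H2-M segment was the sparsest, with 56 regions in 1.8 Mb (31.1 per Mb), still above the 16.2 per Mb of the rest of the chromosome. Of the 37 bins of 100 kb in the window, the fullest was 35.3 to 35.4 Mb with 11 regions, which spans the border of class III and H2-D, and the next was 34.3 to 34.4 Mb in the H2-K and class II segment with 10. The median bin held 4 regions.

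Neighbouring regions were separated by a median of 14.0 kb in the MHC, against 23.2 kb on the rest of chromosome 17 and 24.4 kb over all placed chromosomes. The median distance was shortest in class III, at 9.01 kb, and longest in H2-T and H2-M, at 22.4 kb. In class III short distances stood beside long empty stretches, the longest of 91.6 kb. The longest stretch without a region in any list ran from 36555703 to 36862977, 307.3 kb within the H2-T and H2-M segment, and the second longest from 37220689 to 37340523, 119.8 kb in the same segment. One more stretch over 100 kb, from 34577287 to 34692140, separated the last region of the H2-K and class II segment from the first of class III. How reads with several matching positions were handled is not given in the sources used here. H2-Q, H2-T and H2-M genes are close paralogs, so a stretch without peaks there is not shown to be free of Rad21.

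**Figure D1:**
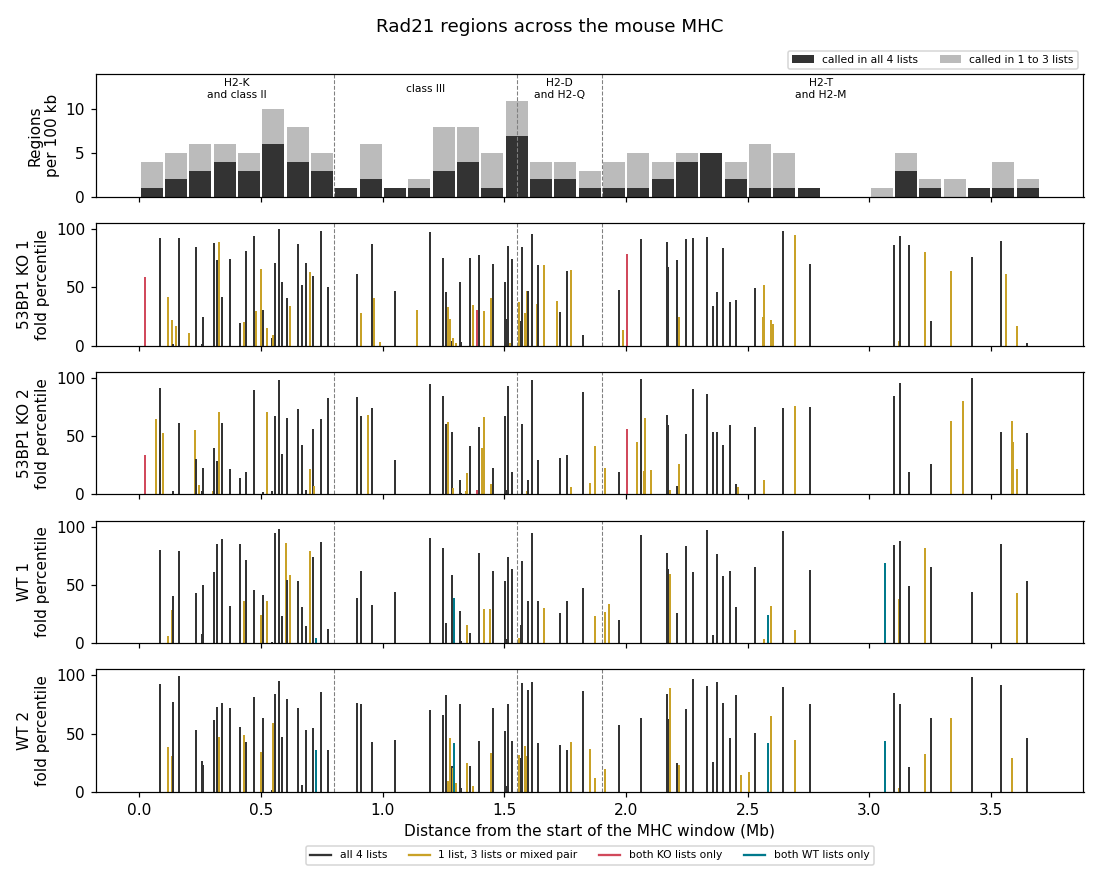
Rad21 regions along the MHC, by distance in Mb from the start of the window, with dashed lines at the borders of the 4 segments. The top row counts merged regions per 100 kb and the rows under it show, for each knockout and WT list, every called region as a line whose height is its within-list percentile of fold. Regions crowd in H2-K and class II and at the border of class III and H2-D, where the fullest bin held 11, and a stretch of 307.3 kb in H2-T and H2-M is empty in all 4 lists.

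Of the 158 MHC regions, 76 (48.1%) were called in all 4 lists, against 41.7% of all regions of the placed chromosomes and 42.4% of those on the rest of chromosome 17. A further 27 regions were called in 3 lists and 39 (24.7%) in a single list, against 30.7% of all regions. The share called in all 4 lists was 53.1% in H2-K and class II, 47.2% in class III, 47.1% in H2-D and H2-Q and 44.6% in H2-T and H2-M. Single-list regions came mainly from the knockout lists, 14 from replicate 1 and 18 from replicate 2, against 4 and 3 from WT replicates 1 and 2. Over all placed chromosomes, single-list regions numbered 3786 and 3171 in the knockout lists and 1597 and 2104 in the WT lists.

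Regions that followed genotype were few. Both knockout lists and neither WT list called 3 MHC regions (1.90%, against 3.05% of all regions). Both WT lists and neither knockout list called 4 (2.53%, against 2.19% of all regions). The pairs that mix genotypes gave between 0 and 5 MHC regions of their own, so the 3 and the 4 lay within the range of mixed pairs. The H2-D and H2-Q segment held 0 regions of either kind among its 17. These shares lie near the background, and no test per region was made.

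**Figure D2:**
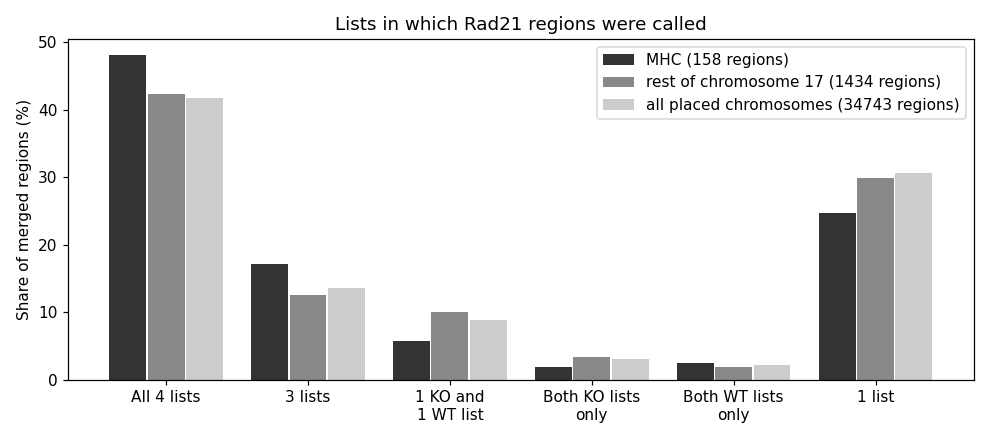
Share of merged Rad21 regions, in percent, by the lists that called them, for the 158 regions of the MHC, the 1434 of the rest of chromosome 17 and all 34743. Regions of all 4 lists made up 48.1% in the MHC, 42.4% on the rest of the chromosome and 41.7% of all regions, and regions of a single genotype were at most 3.28% in any of the 3 sets.

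The comparison of genotypes asked whether cohesin peaks in the MHC differed in number or extent without 53BP1. The knockout lists held 123 and 118 MHC peaks, and the WT lists held 103 and 114. Both knockout counts exceeded both WT counts, by a mean of 12 peaks or 1.11-fold (120.5 ± 3.54 in knockout and 108.5 ± 7.78 in WT, mean ± SD, n = 2 each). The exact permutation test (two-sided, 6 arrangements of the libraries) gave p = 0.333, the lowest p that 2 against 2 libraries allow, so no comparison here can pass 0.05. The lists also differ in length, and as a share of its list the MHC held 0.489% (Wilson 95% interval 0.410 to 0.583%) and 0.518% (0.432 to 0.620%) of knockout peaks, against 0.469% (0.387 to 0.568%) and 0.495% (0.412 to 0.594%) of WT peaks. These intervals cover counting error only, all 4 overlap, and the shares of the genotypes overlap too (exact permutation p = 0.667). Read depth is unknown. When every list was shortened to its 21971 strongest peaks, the length of the shortest, the difference was 4 peaks, with 109 and 115 in the knockout and 103 and 113 in WT. The lists of 1 replicate number share a prefix in their peak names across genotypes, and knockout minus WT was 20 peaks within replicate 1 and 4 within replicate 2.

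MHC peaks covered 60.9 and 73.3 kb in the knockout lists and 57.1 and 58.9 kb in the WT lists. The groups did not overlap, with a mean difference of 9.13 kb (67.1 ± 8.77 kb in knockout, 58.0 ± 1.23 kb in WT, n = 2 each, ± SD; p = 0.333, exact permutation). Knockout replicate 2 carried most of this gap, which was 2.93 kb without it and 15.3 kb without knockout replicate 1. Its MHC peaks were the widest, with a median of 596.5 bp, against 460 bp in knockout replicate 1 and 491 and 515 bp in the WT lists. The medians of the whole lists showed the same order at the top, with 564 bp in knockout replicate 2, 476 bp in knockout replicate 1 and 512 and 509 bp in the WT lists. Median width in the MHC therefore lay on either side of WT in the knockout lists (exact permutation p = 1).

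Peak strength differed more between the 2 knockout lists than between the genotypes. The authors' own fold, the enrichment of a peak over its background, had a median of 4.08 and 3.56 over MHC peaks in the knockout lists and 3.98 and 3.98 in the WT lists. Knockout replicate 2 was low over its whole list, with a median fold of 3.67, against 4.15 in knockout replicate 1 and 4.10 and 4.06 in WT. Ranked within its own list, the median MHC peak stood at percentile 47.0 and 42.1 in the knockout and 43.7 and 46.2 in WT, so MHC peaks were close to the middle of each list. Strong peaks, those whose −log10 q reached 5, numbered 44 and 19 in the knockout lists and 30 and 37 in the WT lists. These are 35.8% (Wilson 27.8 to 44.6%) and 16.1% (10.6 to 23.8%) of knockout MHC peaks and 29.1% (21.2 to 38.5%) and 32.5% (24.6 to 41.5%) of WT MHC peaks. The intervals cover counting error within a list only, not the spread between libraries. Over the whole lists, strong peaks made up 25.9% and 16.5% for the knockout and 27.0% and 27.7% for WT. The strong peaks of the knockout lists lay on either side of WT, and the mean difference of −2 peaks was 10.5 peaks without knockout replicate 2 and −14.5 without knockout replicate 1 (exact permutation p = 1 with all 4).

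The lists were next compared by the length of peaks they shared in the MHC. The base-pair Jaccard index, the shared over the combined length of the peaks, was 0.464 between the 2 knockout lists and 0.511 between the 2 WT lists. The 4 mixed pairs lay between 0.450 and 0.513. The highest index was that of knockout replicate 1 with WT replicate 2, and the mean of the same-genotype pairs exceeded that of mixed pairs by 0.013, less than the SD of 0.027 among mixed pairs. Across the 76 regions of all 4 lists, Spearman's rho of the within-list percentiles was 0.61 for the 2 knockout lists, 0.61 for the 2 WT lists and 0.50 to 0.61 for mixed pairs. These correlations describe regions that share their libraries, and regions are not replicates.

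The H2-K and class II segment held 39 and 37 peaks in the knockout lists and 35 and 35 in the WT lists. Class III held 30 and 26 peaks in the knockout and 21 and 25 in WT. In both segments the knockout counts lay above the WT counts, by means of 3 and 5 peaks (exact permutation p = 0.333 each, 0.667 after Benjamini-Hochberg adjustment over the 4 segments). H2-D and H2-Q held 15 and 12 against 11 and 14 peaks in knockout and WT lists. H2-T and H2-M held 39 and 43 peaks in the knockout and 36 and 40 in WT. The groups overlapped in these last segments, with differences of 1 and 3 peaks (exact permutation p = 0.667 each, adjusted p = 0.667). Within replicate numbers, knockout minus WT was 4 and 2 peaks in H2-K and class II, 9 and 1 in class III, 4 and −2 in H2-D and H2-Q, and 3 and 3 in H2-T and H2-M. With equal numbers of peaks from every list the difference was −0.5 peaks in H2-K and class II, 3.5 in class III, 0.5 in H2-D and H2-Q and 0.5 in H2-T and H2-M. With any 1 list left out it ranged from 3 to 7 peaks in class III, from −0.5 to 2.5 in H2-D and H2-Q and from 1 to 5 in H2-T and H2-M. In class III it was 3 without knockout replicate 1 or without WT replicate 1, and in H2-T and H2-M it was 1 without knockout replicate 2 or without WT replicate 1. In H2-D and H2-Q it was −0.5 without knockout replicate 1 or without WT replicate 1.

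The difference in covered length stood mainly in H2-K and class II. Covered length by segment was not a planned comparison. This segment was singled out after its values were seen, and its p was not adjusted over the 4 segments. There peaks covered 22.1 and 22.9 kb in the knockout lists and 16.8 and 17.5 kb in the WT lists. Here the knockout replicates lay close together and above both WT replicates, 1.31-fold on average (22.5 ± 0.57 kb in knockout, 17.1 ± 0.52 kb in WT, n = 2 each, ± SD; p = 0.333, exact permutation). The difference was 5.39 kb, 5.36 and 5.43 kb within replicate numbers 1 and 2, and 4.99 to 5.80 kb with any 1 list left out. Median peak widths in this segment were 520 and 545 bp in the knockout and 438 and 478 bp in WT, although knockout replicate 1 was the narrowest list over the whole window. Counting only peaks whose fold reached 4, the difference in covered length was −2.21 kb, and for strong peaks −0.17 kb. The sign thus turned under both filters, which left the fewest peaks in knockout replicate 2. At a fold of at least 4 the whole window held 66 and 24 peaks in the knockout and 51 and 55 in WT. Strong peaks in this segment numbered 16 and 4 in the knockout and 10 and 13 in WT. With each list cut to its 21971 strongest peaks, the knockout still covered 4.165 kb more here. Why the sign turned was not tested. In class III the covered lengths were 15.8 and 15.9 kb in the knockout and 12.7 and 14.7 kb in WT, again without overlap. In H2-D and H2-Q they were 6.27 and 8.33 kb in the knockout and 7.33 and 7.28 kb in WT, and in H2-T and H2-M 16.7 and 26.1 kb in the knockout and 20.3 and 19.3 kb in WT. In these segments the knockout lists lay on either side of both WT lists.

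**Figure D3:**
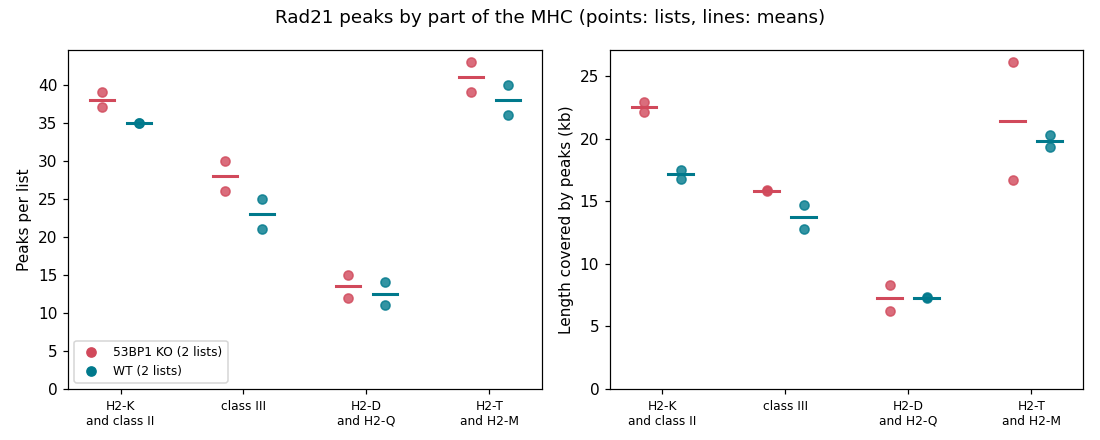
Number of Rad21 peaks (left) and length they covered in kb (right) in each segment of the MHC, with a point per list and a line at each mean, knockout left of WT. In H2-K and class II the knockout lists covered 22.1 and 22.9 kb against 16.8 and 17.5 kb in WT, while in H2-T and H2-M knockout replicate 2 stood above and replicate 1 below both WT lists.

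The 76 regions shared by all 4 lists were compared one by one, first by rank within each list. In 14 of them (18.4%) both knockout percentiles lay above both WT percentiles, against 18.7% of all shared regions of the genome, and in 9 (11.8%) both lay below, against 16.1%. Both shares were at or under the background. In class III 5 of 17 shared regions ranked higher in the knockout lists and 0 lower. In H2-K and class II 6 of 26 ranked higher and 6 lower, and in H2-T and H2-M 2 of 25 higher and 3 lower. By length covered, both knockout lists exceeded both WT lists in 15 of the 76 (19.7%, against 18.1% of all shared regions) and lay under both in 9 (11.8%, against 15.2%). Of those 15, 10 lay among the 26 shared regions of H2-K and class II, where 3 were shorter, while the other segments held 5 longer and 6 shorter regions among 50. The segment shares were not tested.

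Knockout replicate 2 ranked 36 of the 76 shared regions lowest and knockout replicate 1 ranked 31 highest. Over all 14484 shared regions of the genome these lists held 34.3% of the lowest and 30.6% of the highest ranks, against 47.4% and 40.8% in the MHC. At the 75 shared MHC regions with exactly 1 peak per list, median widths were 551 and 673 bp in the knockout and 544 and 564 bp in WT.

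**Figure D4:**
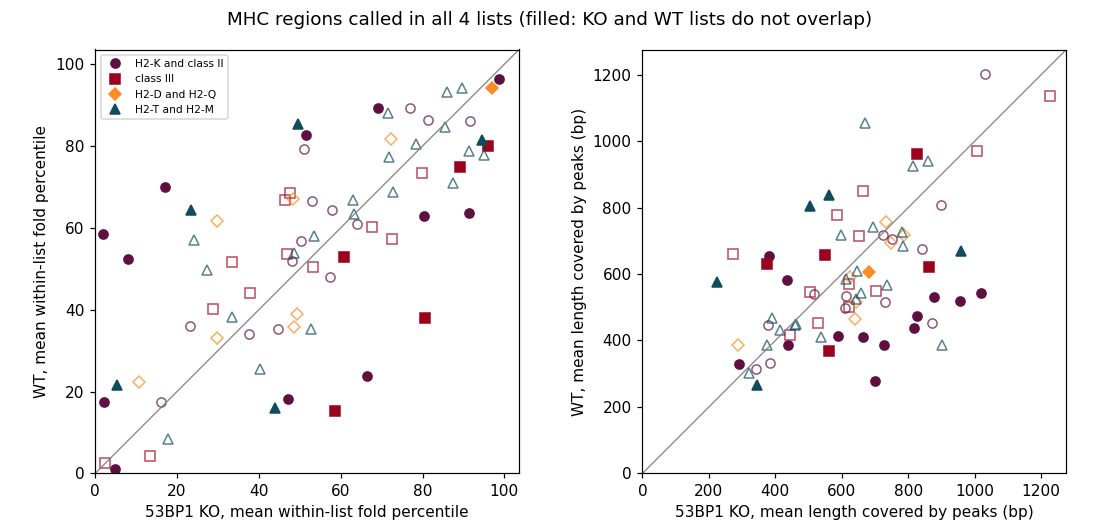
The 76 MHC regions called in all 4 lists, with the mean of the knockout lists on the horizontal axis and of the WT lists on the vertical axis, for within-list fold percentile (left) and length covered by peaks in bp (right). Filled symbols mark regions where the lists of the genotypes do not overlap, 23 on the left and 24 on the right; on the right, 10 of the 15 filled symbols with more length in the knockout belong to H2-K and class II.

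Shared regions were described next by segment, ranked by the lowest of their 4 within-list percentiles of fold, where a list's strongest peak in a region gave its value. The strongest region of the MHC lay in H2-K and class II at 34371777 to 34372445. Its folds were 8.01 and 5.27 in the knockout lists and 6.33 and 5.70 in the WT lists, at percentiles 99.7 and 97.8 in the knockout and 97.8 and 94.9 in WT. Its lowest percentile was above that of 99.0% of all shared regions of the genome. The second in this segment lay at 33882724 to 33883758, with folds of 5.84 and 4.65 in the knockout and 4.89 and 5.44 in WT. The third lay at 34355551 to 34356498, with folds of 4.73 and 3.96 in the knockout and 5.74 and 4.99 in WT, and both knockout percentiles (71.0 and 67.3) were under both WT percentiles (94.1 and 84.3). It was the direct neighbour of the strongest region, so 2 of the 3 strongest sites of this segment stood side by side.

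The widest region of the window also lay in this segment, at 34271080 to 34272853, 1774 bp long. Peaks covered 840 and 1224 bp of it in the knockout lists and 1663 and 740 bp in the WT lists. By −log10 q it was strong in every list, with 12.6 and 9.23 in the knockout and 5.53 and 7.72 in WT. Its folds were 5.99 and 4.56 in the knockout and 4.01 and 4.89 in WT, and in WT replicate 1 its fold stood at percentile 45.5. The region at 33939092 to 33939950 was singled out after its values were seen, for its low knockout ranks. It had folds of 3.00 and 2.81 in the knockout, percentiles 1.1 and 2.8, and of 3.92 and 4.71 in WT, percentiles 40.3 and 76.7. Although lower in rank, it was longer in the knockout, with 538 and 859 bp covered against 251 and 307 bp in WT. The same pairing of lower rank and greater length, also noticed after the values were seen, held at 34214457 to 34215579. There peaks covered 1044 and 410 bp in the knockout and 400 and 374 bp in WT, at percentiles 19.7 and 14.2 in the knockout and 84.6 and 55.2 in WT. Among the 76 shared regions, 5 ranked lower and were longer in both knockout lists than in both WT lists (6.58%, against 4.88% of all shared regions): these and those at 34307615, 34355551 and 36130552. The opposite pairing, higher rank and less length in the knockout, held at 2 regions, 34992671 and 35314990 in class III (2.63%, against 4.83%). Rank and length were both higher in the knockout at 2 regions and both lower at 2.

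In class III the strongest region lay at 35314990 to 35316061, with folds of 5.35 and 4.74 in the knockout and 4.69 and 4.67 in WT. Both knockout percentiles, 85.5 and 92.7, were above the WT percentiles of 74.2 and 75.4. The next lay at 34992671 to 34993378, with folds of 6.58 and 4.88 in the knockout and 5.41 and 4.51 in WT, again with both knockout percentiles (97.3 and 94.7) above both WT percentiles (90.2 and 70.0). The third lay at 35048868 to 35049588, with folds of 4.88 and 4.38 in the knockout and 4.95 and 4.39 in WT, and the percentiles of the genotypes overlapped. The widest region of class III, at 35157594 to 35159156, measured 1563 bp. Its percentiles were 75.5 and 41.5 in the knockout and 8.85 and 21.9 in WT, a weak site in WT lists that ranked near or above the middle of the knockout lists.

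In H2-D and H2-Q a single region stood out by its within-list percentiles of fold, at 35411367 to 35412256. Its folds were 6.23 and 5.40 in the knockout and 5.73 and 5.64 in WT, at percentiles 95.5 and 98.4 in the knockout and 94.0 and 94.5 in WT, and it was the second strongest of the whole window by this measure. The next lay at 35372854 to 35373862, with folds of 5.29 and 3.83 in the knockout and 4.57 and 5.52 in WT. Its −log10 q was 15.6 and 9.58 in the knockout and 11.7 and 16.1 in WT. The third and widest of the segment, at 35556900 to 35558349, measured 1450 bp and was weaker, with folds of 4.50 and 3.44 in the knockout and 3.83 and 3.79 in WT.

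In H2-T and H2-M the strongest region lay at 36133805 to 36134538, with folds of 5.93 and 4.45 in the knockout and 6.24 and 5.32 in WT. Its −log10 q was at least 11.6 in every list. The other leading regions of this segment, at 36901112 to 36902552 and 36925662 to 36926300, stood close together with 1 region between them, beyond the empty stretch of 307.3 kb. The first of this pair had folds of 5.42 and 4.38 in the knockout and 5.08 and 5.01 in WT. The second had −log10 q of 7.91 and 7.93 in the knockout and 6.58 and 4.83 in WT, and both its knockout percentiles (93.7 and 95.6) exceeded both WT percentiles (87.8 and 75.2). The widest region of the segment, at 36444966 to 36446420, measured 1455 bp, with folds of 6.80 and 4.09 in the knockout and 6.06 and 5.25 in WT. The region with the most peaks, at 37051033 to 37052321, held 5. It ranked lower in the knockout, at percentiles 21.3 and 25.8, against 65.5 and 63.3 in WT, with folds of 3.56 and 3.34 in the knockout and 4.44 and 4.34 in WT.

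Of the 76 shared regions, 12 (15.8%) were strong in every list, against 16.2% of all shared regions. They were spread over the complex, 4 in H2-K and class II, 3 in class III, 2 in H2-D and H2-Q and 3 in H2-T and H2-M. The share of strong sites in the MHC was thus near that of the genome.

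The 3 knockout-only regions ranged from weak to above the middle of their lists. The first, in H2-K and class II at 33821771 to 33822384, had folds of 4.36 and 3.44 (knockout replicates 1 and 2). The second lay in class III at 35188163 to 35188838, with folds of 3.74 and 2.88. The last and strongest lay in H2-T and H2-M at 35802687 to 35803386, with folds of 5.02 and 3.76, percentiles 78.6 and 56.1 of their lists, and −log10 q of 4.38 and 2.05. None of the 3 reached a −log10 q of 5 in either list.

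The 4 WT-only regions were narrow, with a median width of 351 bp against 867.5 bp for the shared MHC regions. Merging over more lists widens a region, and over all placed chromosomes these medians were 514 and 919 bp. One, in H2-K and class II at 34525506 to 34525844, had folds of 3.18 and 3.79 (WT replicates 1 and 2). One lay in class III at 35093446 to 35093747, with folds of 3.89 and 3.90. The others lay in H2-T and H2-M, at 36862978 to 36863508 with folds of 4.52 and 3.93 and at 36382660 to 36383022 with folds of 3.63 and 3.90. The first of these formed the far edge of the empty stretch of 307.3 kb, which in the knockout lists therefore ran on to the region starting at 36901112. No WT-only region was strong in either list.

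Strong peaks alone gave other regions of a single genotype, which were looked up after their values were seen. Of 58 MHC regions built from strong peaks, 1 was knockout-only (1.72%, against 1.78% of the 9519 such regions of all placed chromosomes) and 3 were WT-only (5.17%, against 4.94%), so both shares were near the background. The knockout-only one lay at 36492264 to 36492772 in H2-T and H2-M, where the −log10 q was 7.56 and 5.35 in the knockout, 1.87 in WT replicate 2, and WT replicate 1 called no peak. Its folds were 6.12 and 4.13 in the knockout and 3.31 in WT replicate 2. The WT-only ones lay at 34307615 to 34308178 in H2-K and class II, 34708703 to 34709365 in class III and 36330378 to 36330975 in H2-T and H2-M. All 3 were also called in both knockout lists, with −log10 q of 2.72 to 4.62, against 5.34 to 8.42 in WT.

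At the edges of the window, the last region outside on the low side ended at 33676551 and was called in all 4 lists, with folds of 5.15 and 5.04 in the knockout and 6.01 and 5.66 in WT. The first inside was the knockout-only region at 33821771. The last inside, at 37445526 to 37445980, had folds of 3.10 and 3.71 in the knockout and 4.17 and 3.98 in WT, and the next outside, at 38112089 to 38112360, was called in WT replicate 2 alone.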

How the data were processed

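Rad21 ChIP-seq (chromatin immunoprecipitation with tagmentation on beads, then sequencing) was measured in 4 libraries. Per the submitters' processing notes the build was mm9 and the tools were MACS2 2.2.7.1, deepTools 3.5.1, SAMtools 1.15.1 and Bowtie2 2.4.4. Their parameters and any control library: not given in the sources used here. The deposited fold is a ratio of peak signal to background, and the deposited −log10 p and −log10 q are the caller's, per list and not pooled. The score in the deposited lists is the −log10 q times 10, truncated (checked, difference at most 1). No list gives read counts, so depth is unknown and lower depth alone can give fewer or weaker peaks.

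Groups came from the sample titles. Chromosomes 1 to 19 and X entered, and 7 mitochondrial peaks were set aside. Touching or overlapping peaks were merged over lists, folds were ranked within each list, and coordinates are 1-based. Chromosome lengths for densities run from the first to the last peak. Group means were compared with the two-sided exact permutation test, without replicate block. Merging and ranking were tested on simulated data with planted regions. Python 3.11.15, pandas 2.3.3 and scipy 1.17.1 were used.

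Named regions: per segment the 3 strongest shared, up to 2 per genotype-only direction and the widest, and over the window the 2 longest empty stretches and the region with most peaks. Members, segments and rules were chosen with earlier results of these data known. Alternatives were stricter q or fold, equal list length, the window's edge, merging, cover, and each list left out. No mm9 sequence was used, so none is printed.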

Additional observations from a re-analysis of the deposited data

How the results depend on the processing

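Covered length by segment was not a planned comparison. Leaving out lists for the classes, and all alternatives for the covered length of H2-K and class II, were chosen after seeing the data. Of 83 values recomputed with all 4 lists, 57 kept their direction (counts of regions and the Jaccard index also their size within the limits used), 17 turned round and 9 moved. The 57 include 16 values for peaks overlapping the window by 1 bp, which could not change, as no peak crossed an edge. They also include 12 of the replicate block, where all but the Jaccard difference are fixed by construction. Of those 57, 8 moved by over 1.5 times in size, among them 4 peaks for the window and 0.5 for H2-D and H2-Q and for H2-T and H2-M with equal lists, 0.048 percentage points of the list for strong peaks and 47.25 bp of median width at a fold of at least 4. With a list left out, 23 of the 43 values that kept their direction moved as far. Values are knockout minus WT unless they count regions. For peaks with −log10 q reaching 5 they were −2 peaks, −1.26 kb (−0.17 kb in H2-K and class II), 17.5 percentiles of fold, −1.5 peaks in H2-K and class II, 0 in class III, −1 in H2-D and H2-Q, and −0.0094 for the Jaccard index, with 12 shared, 1 knockout-only and 21 single-list regions. At a fold of at least 4 they were −8 peaks, −0.034 percentage points of the list, −4.77 kb (−2.21 kb in H2-K and class II), 0.72 percentiles, −5.5 peaks in H2-K and class II, 0 in class III, −4 in H2-T and H2-M, and −0.0015 for the Jaccard index, with 15 shared regions. With equal lists they were 0.17 percentiles and −0.5 peaks in H2-K and class II. When a list had to cover 50% of a region, 38 were shared, 5 knockout-only and 59 single-list. Peaks overlapping the window by 1 bp and merging up to 200 bp apart moved no value past its limit. The cause of these changes was not tested; the stricter filters leave fewer peaks, above all in knockout replicate 2.

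With each list left out in turn, the median width difference ranged from −43 to 93.5 bp, the fold percentile from −2.88 to 2.02, strong peaks from −14.5 to 10.5, H2-D and H2-Q peaks from −0.5 to 2.5 and the Jaccard difference from −0.027 to 0.051. Without one list, knockout-only regions numbered 8 to 22 and WT-only regions 7 to 12, since the rule then asks fewer lists. The peak number difference ranged from 6.5 to 17.5. In the replicate block, differences within replicate numbers average to the difference of group means, 12 peaks, by construction, and the Jaccard difference was 0.0059. Over 2649 windows of 1 Mb, the deviations of replicate 1 from replicate 2 had a correlation of 0.035 between genotypes. With few peaks per window, this cannot show whether the libraries of 1 replicate number, which share a name prefix, are paired.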
